A study of Mus musculus with 14 samples.

Results

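Of 45 listed genes that encode SET domain proteins, DOT1L or histone demethylases, 43 had a probe set whose annotation names that gene alone, and 40 gave enough signal to be tested. Members were matched by the current or older symbol of the same Entrez gene, and each was read from its probe set with the highest mean over all arrays. The 43 genes had 123 probe sets, 9 of them had a single probe set, and they are 43 of the 18193 genes that a probe set with 1 symbol covered. The 40 tested members are 40 of 8682 genes that reached an intensity of 50 on at least 3 arrays. Prdm16, a regulator of brown fat, Setd4 and the H3K9 demethylase Kdm4b stayed under that limit, with mean intensities of 6.09, 40.6 and 29.8 over all arrays. Ash1l and Suv39h1 were not analysed here.

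The cells were 3T3-L1, a mouse fibroblast line that forms fat cells under a hormone mixture. Preadipocytes had been transduced with an empty virus (empty-virus cells) or with a virus carrying V5-tagged SETD5 behind a weak LTR promoter (SETD5 cells), and each arm was a stably transduced line, so the SETD5 virus and any other difference between the lines cannot be told apart. Both arms received the same treatment: the 0 h cells were confluent and untreated, the mixture of insulin (1 µg/ml), dexamethasone (0.25 µM) and isobutylmethylxanthine (0.5 mM) was present to 48 h, and insulin (1 µg/ml) alone followed. Total RNA was measured on 14 Affymetrix arrays, 1 for each virus at 0, 12, 24, 36, 48, 96 and 192 h, so no virus and hour had a replicate. Virus differences therefore use the 7 hours in place of replicates, and hour differences use the 2 viruses; the p-values measure the spread between these arrays.

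Histone methyltransferases add methyl groups to lysines of histones, and demethylases remove them. Marks on H3K4 and H3K36 accompany active genes, whereas those on H3K9 and H3K27 accompany silenced ones. LSD1-type demethylases use a flavin cofactor and the JmjC type use iron and oxoglutarate. In adipogenesis the H3K4 methyltransferases KMT2C and KMT2D prime enhancers, EZH2 silences Wnt genes and SETDB1 keeps late adipogenic genes repressed in preadipocytes. SETD5 carries a SET domain and binds the corepressors NCoR and HDAC3.

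All 8 preadipocyte markers and all 7 adipocyte markers on the arrays passed the intensity limit, and none of the 5 leukocyte, 4 endothelial or 4 muscle markers did. The summed intensity of the adipocyte markers went from 1606 at 0 h to 34107 at 192 h in empty-virus cells and from 1788 to 20009 in SETD5 cells. Summed leukocyte markers stayed between 33.0 and 112, endothelial markers between 5.9 and 21.8, and muscle markers between 25.0 and 57.9. Across tested genes the 2 arrays of an hour correlated at 0.991 at 0 h and at 0.931 at 192 h. Log2 differences below are of intensity plus 16, errors are limma standard errors (SE), and a gene was called at an adjusted p under 0.05 over all 8682 genes. In bulk RNA, fewer cells of a type and less RNA per cell cannot be told apart.

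The members with the largest called rise at 12 h (Suv39h2), the largest rise at 48 h (Kdm7a) and the largest fall (Kdm5b) are introduced by the 250 bases before their RefSeq start, from GRCm38.p6. The Suv39h2 stretch is chr2:3474987-3475236 on the minus strand, that of Kdm7a is chr6:39206774-39207023 on the minus strand, and that of Kdm5b is chr1:134559928-134560177 on the plus strand. Each is written 5′ to 3′, and capitals mark matches to the E2F core GGCGGGAA or the cAMP response element TGACGTCA, searched on both strands.
Suv39h2: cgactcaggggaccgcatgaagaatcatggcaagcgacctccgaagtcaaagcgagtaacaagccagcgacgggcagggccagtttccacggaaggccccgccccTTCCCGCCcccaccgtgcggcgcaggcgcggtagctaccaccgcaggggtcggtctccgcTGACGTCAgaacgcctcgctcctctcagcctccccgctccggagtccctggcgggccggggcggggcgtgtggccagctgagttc
Kdm7a: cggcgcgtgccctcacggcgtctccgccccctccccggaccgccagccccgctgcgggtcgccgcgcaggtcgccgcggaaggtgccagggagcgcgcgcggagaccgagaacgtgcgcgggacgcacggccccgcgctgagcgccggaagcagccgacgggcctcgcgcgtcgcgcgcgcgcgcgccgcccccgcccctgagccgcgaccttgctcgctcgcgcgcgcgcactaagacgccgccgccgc
Kdm5b: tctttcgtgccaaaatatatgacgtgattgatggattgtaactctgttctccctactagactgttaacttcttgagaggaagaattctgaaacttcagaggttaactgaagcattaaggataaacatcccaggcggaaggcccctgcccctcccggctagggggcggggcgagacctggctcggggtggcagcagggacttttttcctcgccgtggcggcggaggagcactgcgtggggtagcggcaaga
The Suv39h2 stretch held the E2F core on the reverse strand, as TTCCCGCC, 145 bases before the start, and TGACGTCA 85 bases before the start. Those of Kdm7a and Kdm5b held neither, nor CCAAT. Promoters were found for 34 of the 45 members, and among these GGCGGGAA was in 1 (Suv39h2), TGACGTCA in 2 (Suv39h2 and Phf8) and CCAAT in 14. Over all 32851 promoter windows the shares were 1.86%, 1.55% and 33.8%.

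Over the time course, 29 of the 40 tested members differed from 0 h at 1 or more hours and 11 at none. The share of all tested genes called at 1 or more hours was not counted. At single hours, 15.6% to 47.8% of all tested genes were called. At 12 h, 17 members were lower and 5 higher, a share of 55% beside 47.8% of all tested genes; of all tested genes 19.9% were higher and 27.9% lower. The median member differed by -0.28 on the log2 scale, against -0.06 for all tested genes. The decline was seen in each arm on its own: 26 of 40 members (65%) were lower at 12 h than at 0 h in both arms, against 47.1% of all tested genes. For 20 of 40 members the mean of both arms was lowest at 12 h, against 25.4% of tested genes. The hour contrasts share the same 0 h arrays.

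**Figure D1:**
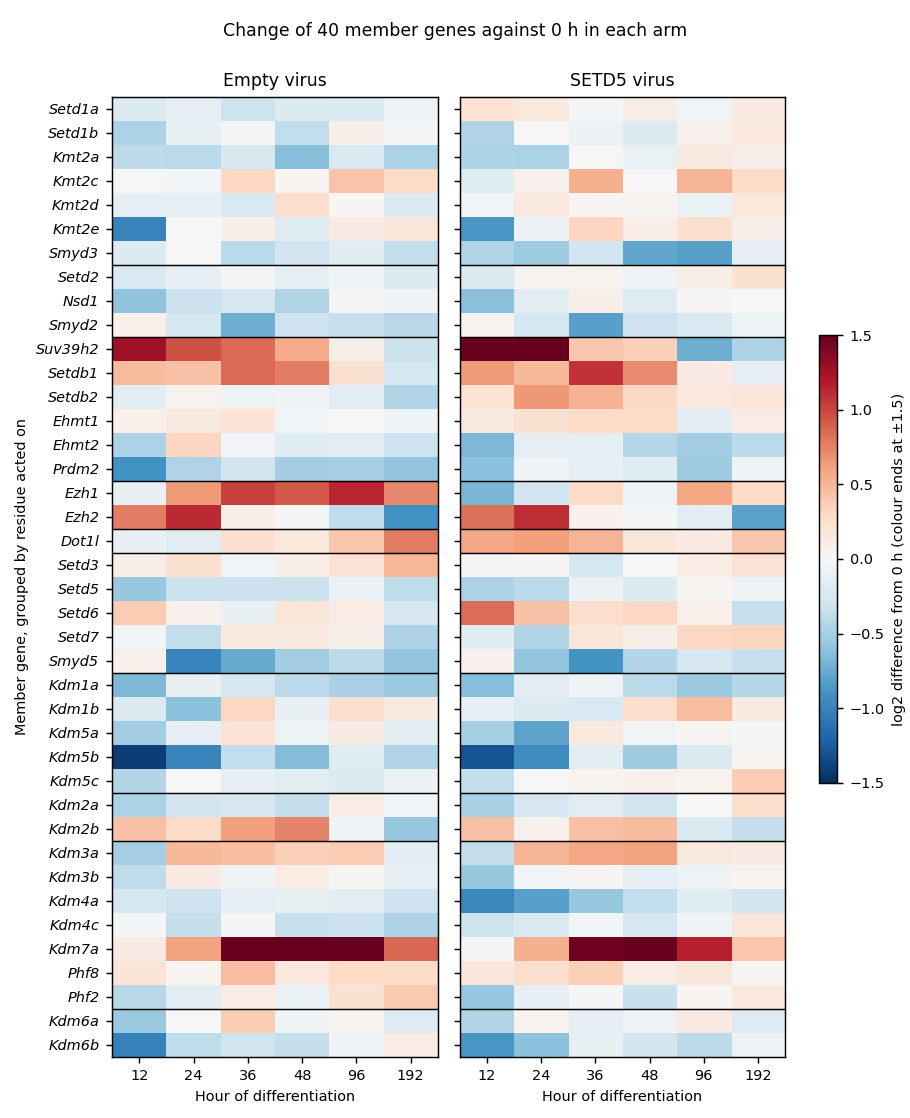
Colour gives the log2 difference from 0 h in intensity plus 16 at each later hour (columns) for the 40 tested members (rows, grouped by the residue acted on), with the empty virus on the left and the SETD5 virus on the right, 1 array per cell. The 12 h column is below 0 for 29 members in empty-virus cells and 27 in SETD5 cells, and Kdm7a is the darkest red row from 36 to 96 h.

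Most of the members that fell at 12 h were demethylases. Of the 16 tested, 11 fell, against 6 of the 24 methyltransferases and other SET domain proteins and 27.9% of all tested genes. This split was made after the values were seen and was not tested. The falls of Kdm5a, Kdm5c and Kdm3a were called in 10, 9 and 12 of 13 alternatives, and that of Kdm4a in 11 of 12. The 6 falls among the other enzymes were called in every alternative of the same probe set. Among H3K4 demethylases, 4 of 5 fell, and among H3K27 demethylases 2 of 2. Of the H3K9 demethylases, 4 of 7 fell. The 2 H3K36 demethylases were called in opposite directions: Kdm2a at -0.48 ± 0.12 (adjusted p = 0.00663) and Kdm2b at 0.44 ± 0.13 (adjusted p = 0.0188).

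Kdm5b, which removes methyl groups from H3K4, gave the largest fall. Its intensity in empty-virus cells was 390.5, 136, 189, 299, 243, 342 and 281 from 0 to 192 h. In SETD5 cells it was 356, 136, 179, 316, 241, 306 and 366. In each arm the 12 h array was the lowest of the 7 and the 24 h array the next lowest. The log2 difference from 0 h was -1.36 ± 0.13 at 12 h (2.56-fold, adjusted p = 4.76e-05), -0.96 ± 0.13 at 24 h (adjusted p = 0.00039) and -0.59 ± 0.13 at 48 h (adjusted p = 0.00764).

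Kdm6b, an H3K27 demethylase induced in many cells by inflammatory signals, gave 281, 131, 211, 225, 216, 268 and 303 in empty-virus cells and 311, 163, 197, 288, 255, 233 and 295 in SETD5 cells. Both 12 h arrays lay below every other array of Kdm6b. It fell by 0.94 ± 0.14 on the log2 scale at 12 h (adjusted p = 0.000572) and by 0.50 ± 0.14 at 24 h (adjusted p = 0.02). Its other probe set that passed gave -0.99 ± 0.27 at 12 h. Kdm6a, the X-linked relative in the KMT2C and KMT2D complexes, fell by 0.50 ± 0.15 at 12 h (adjusted p = 0.0188) and was called at no other hour.

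Kdm1a, the LSD1 enzyme of the CoREST complex, was lower at 12, 48, 96 and 192 h. Its intensity in empty-virus cells went from 677 at 0 h to 418 at 12 h, back to 627 at 24 h and to 457 at 192 h, and in SETD5 cells from 721 to 457, 638 and 530.2. The differences from 0 h were -0.66 ± 0.11 at 12 h (adjusted p = 0.000773), -0.40 ± 0.11 at 48 h (adjusted p = 0.0174), -0.52 ± 0.11 at 96 h (adjusted p = 0.0101) and -0.49 ± 0.11 at 192 h (adjusted p = 0.0117). The recovery at 24 h was present in both arms.

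Among methyltransferases, Kmt2e, an MLL-family protein with a SET domain that lacks clear activity, showed a fall limited to 12 h. Empty-virus cells gave 331, 158, 332, 355, 286, 363 and 376. SETD5 cells gave 360, 189, 337, 456, 388, 430 and 386. The 2 arrays at 12 h stood below the other 12. It fell by 0.94 ± 0.12 on the log2 scale (1.92-fold, adjusted p = 0.000241), and its 3 other probe sets that passed gave -0.88, -0.86 and -0.78. Other methyltransferases that fell at 12 h were Prdm2 (H3K9) at -0.76 ± 0.15, Nsd1 (H3K36) at -0.62 ± 0.12, Ehmt2, the H3K9 enzyme G9a, at -0.58 ± 0.13 and Setd1b (H3K4) at -0.46 ± 0.11.

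**Figure D2:**
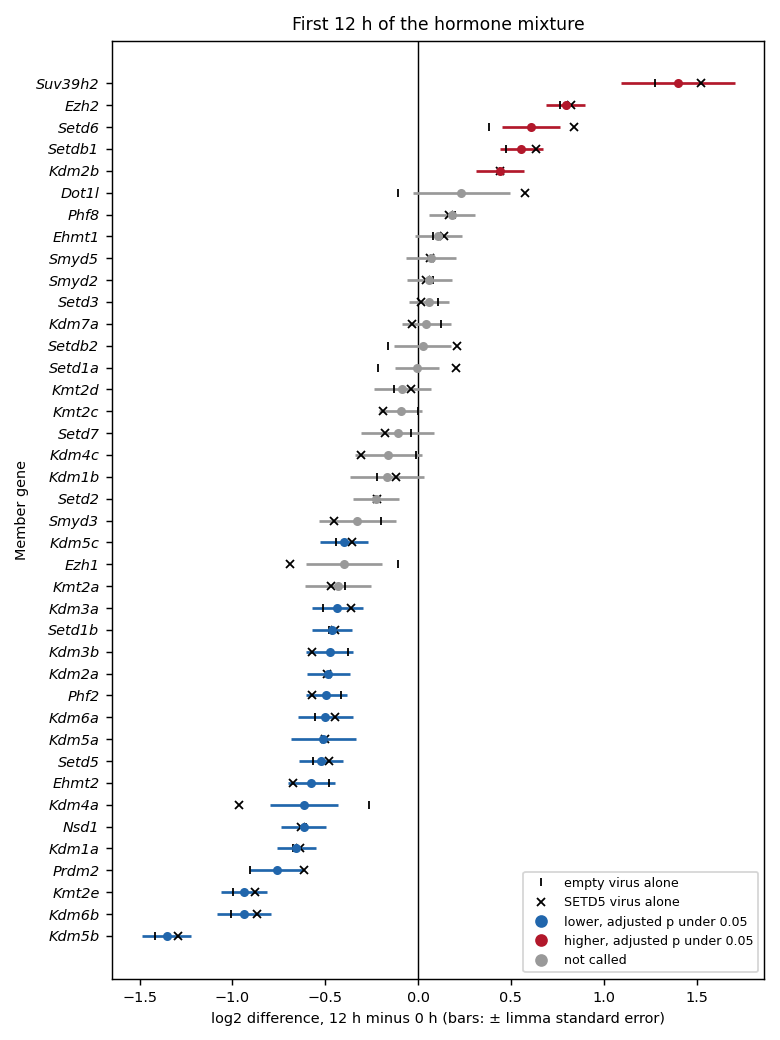
Points give the log2 difference in intensity plus 16 between 12 h and 0 h over both arms for each of the 40 tested members, with bars of ± 1 limma standard error, and ticks and crosses give each arm alone. The 17 members called lower (blue) run from -0.40 to -1.36, and the 5 called higher (red) are Suv39h2, Ezh2, Setd6, Setdb1 and Kdm2b.

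Setd5 itself fell early. Its intensity was 378, 249, 298, 298, 298, 356 and 286 in empty-virus cells, and 339.8, 239, 254, 318, 292, 350.1 and 321 in SETD5 cells. The lowest array of each arm was that of 12 h. The log2 difference from 0 h was -0.52 ± 0.12 at 12 h (adjusted p = 0.00456) and -0.36 ± 0.12 at 24 h (adjusted p = 0.0326), and from 36 h on it was not called. Of its other probe sets that passed, 1 gave -0.80 ± 0.20 at 12 h and the other -0.01 ± 0.30.

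The 5 members that rose at 12 h were headed by 2 silencing enzymes. Suv39h2, which makes H3K9 trimethylation of heterochromatin, was 18.5, 67.6, 51.1, 46.2, 34.6, 20.6 and 11.5 from 0 to 192 h in empty-virus cells. In SETD5 cells it was 21.9, 92.9, 119, 34.1, 32.4, 6.9 and 11.6. In this probe set empty-virus cells peaked at 12 h and SETD5 cells at 24 h. The other probe set that passed peaked the other way round. It gave 99.3 and 112 at 12 and 24 h in empty-virus cells, and 88.6 and 78.1 in SETD5 cells. Suv39h2 passed the intensity limit through these early arrays, and its folds depend on the offset because most values are under 50. The log2 difference was 1.40 ± 0.31 at 12 h (2.64-fold, adjusted p = 0.00412) and 1.40 ± 0.31 at 24 h (adjusted p = 0.00528). Its other probe set gave 1.60 ± 0.13 at both hours.

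Ezh2, the catalytic subunit of the H3K27 methyltransferase complex PRC2, was 399, 689, 885, 428, 393, 301 and 205 in empty-virus cells. Its SETD5 values were 342, 618.5, 754, 360.0, 336, 306 and 189.5. The arrays of 12 and 24 h stood above all others in both arms, and those of 192 h below all others. Ezh2 rose by 0.79 ± 0.11 at 12 h (adjusted p = 0.000249) and by 1.11 ± 0.11 at 24 h (2.16-fold, adjusted p = 4.6e-05), and fell by 0.86 ± 0.11 at 192 h (adjusted p = 0.000684). Of 18 tested S phase genes, 17 were higher at 12 h (median 1.13) and 14 at 24 h (median 1.04), whereas 6 were lower at 36 h, 1 was higher at 48 h, 5 were lower at 96 h and 17 at 192 h (median -0.89). Of 15 mitosis genes, 7 were lower and 1 higher at 12 h (median -0.03) and all 15 higher at 24 h (median 2.13). The mitosis list then had 2 lower and 1 higher at 36 h, 11 lower and 1 higher at 48 h, 11 lower at 96 h and 15 lower at 192 h. The part of cell division in the Ezh2 and Suv39h2 values was not tested. Ezh1, the PRC2 catalytic subunit of resting cells, took another course and rose by 0.66 ± 0.20 at 36 h (adjusted p = 0.0353) and 0.86 ± 0.20 at 96 h (adjusted p = 0.0187). Its 0 h arrays differed between arms, at 50.1 and 90.9, and later arrays reached 130 and 144 at 96 h. The other Ezh1 probe set that passed had the reverse order at 0 h, at 47.4 in empty-virus and 32.6 in SETD5 cells.

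Setdb1, the H3K9 methyltransferase recruited by TRIM28, was higher at 12, 24, 36 and 48 h. It was 111, 160.1, 156, 212, 199.6, 132 and 89.7 in empty-virus cells and 124, 202, 181, 283, 214, 137 and 112 in SETD5 cells. All 8 arrays from 12 to 48 h were above both 0 h arrays. The largest difference was 0.97 ± 0.12 at 36 h (1.96-fold, adjusted p = 0.000269), and at 48 h it was 0.74 ± 0.12 (adjusted p = 0.00117). Setd6, a methyltransferase with non-histone substrates, was higher at 12 h alone, by 0.61 ± 0.16 (adjusted p = 0.0092), with 0.81 from its other probe set.

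At later hours the H3K9 and H3K27 demethylase Kdm7a stood out. Kdm7a was 257, 281, 398, 758, 819, 792 and 481 in empty-virus cells. SETD5 cells gave 281, 275, 413, 800.1, 838, 651 and 382. The 12 h arrays lay between the 0 h arrays, and from 24 h on every array of Kdm7a was above every 0 h array. The rise was 0.57 ± 0.13 at 24 h and 1.48 ± 0.13 at 36 h. It reached 1.57 ± 0.13 at 48 h (2.96-fold, adjusted p = 3.6e-05), then 1.37 at 96 h and 0.64 at 192 h (adjusted p = 0.0102). No other tested member was called at 5 of the 6 hours. Its 2 other probe sets gave 1.73 and 1.17 at 48 h.

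Kdm2b, an H3K36 demethylase that brings a Polycomb complex to CpG islands, was higher at 12, 36 and 48 h and lower at 192 h. It was 467, 639, 572, 724, 792, 449 and 309 in empty-virus cells, and 579, 793, 609, 788, 809, 498 and 449 in SETD5 cells. Both arms were highest at 48 h and lowest at 192 h. The differences from 0 h were 0.61 ± 0.13 at 48 h (adjusted p = 0.00623) and -0.46 ± 0.13 at 192 h (adjusted p = 0.0346). Kdm3a, an H3K9 demethylase that responds to cAMP signalling in fat cells, fell by 0.43 ± 0.14 at 12 h and was higher at 24, 36 and 48 h, by 0.50, 0.52 and 0.48 (adjusted p = 0.0159, 0.018 and 0.0214).

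**Figure D3:**
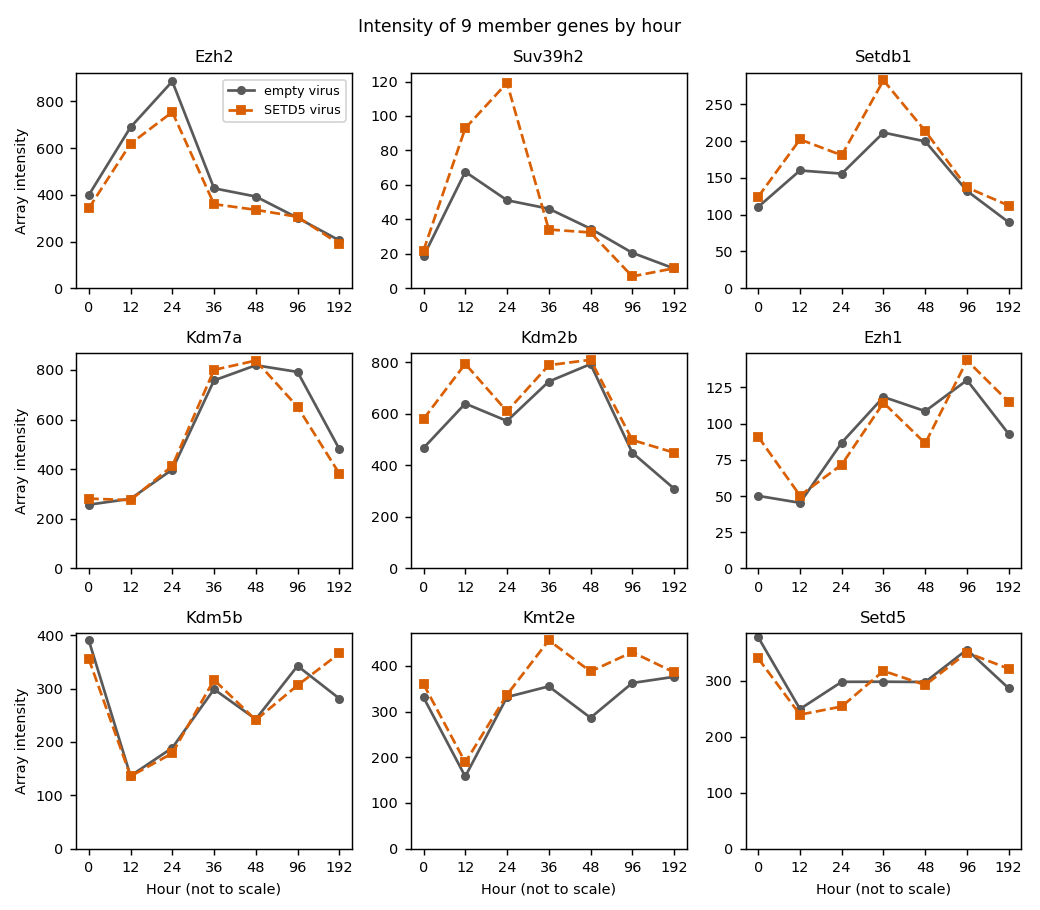
Array intensity (vertical axis, linear, from 0) is plotted against hour (horizontal axis, spaced evenly and not to scale) for 9 members, with 1 array per point, circles for the empty virus and squares for the SETD5 virus. Ezh2 and Suv39h2 are highest at 12 or 24 h, Kdm7a at 48 h, and Kdm5b, Kmt2e and Setd5 dip at 12 h in both arms.

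The counts at the other hours were smaller. At 24 h, 5 members were higher and 5 lower (25%), beside 38.4% of all tested genes (16.4% higher and 21.9% lower). At 36 h it was 7 and 2 (22.5%), beside 29.4% (12.4% and 17%), and at 48 h 4 and 4 (20%), beside 34.2% (14.4% and 19.9%). At 96 h it was 3 and 2 (12.5%), beside 15.6% (6.12% and 9.53%), and at 192 h 2 and 4 (15%), beside 19.6% (7.3% and 12.3%). From 24 h on, the share of members called was below that of all tested genes.

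Among SMYD-family methyltransferases, Smyd5 and Smyd2 fell after 12 h. Smyd5 was called lower at 24, 36, 48 and 192 h, with -0.79 ± 0.13 at 24 h (adjusted p = 0.0013) and -0.83 ± 0.13 at 36 h (adjusted p = 0.0016). Its arrays were 95.8 and 84.5 at 0 h against 40.2 and 50.8 at 24 h. Smyd2 fell by 0.77 ± 0.12 at 36 h alone (adjusted p = 0.00135), from 396 and 438 at 0 h to 232 and 243. Kmt2c, an enhancer H3K4 methyltransferase, was higher at 36 h (0.42 ± 0.12, adjusted p = 0.0227) and at 96 h (0.47 ± 0.12, adjusted p = 0.0238). Other calls after 12 h were Kdm4a (-0.57) at 24 h, Phf8 (0.41) at 36 h, Kdm2a (-0.33) at 48 h, Prdm2 (-0.52) at 96 h and Setd3, the actin histidine methyltransferase (0.36), at 192 h. The Kdm2a and Setd3 values had the opposite sign in another probe set, 0.10 and -0.12.

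The 11 members called at no hour were Dot1l, Ehmt1, Kdm1b, Kdm4c, Kmt2a, Kmt2d, Setd1a, Setd2, Setd7, Setdb2 and Smyd3. Within an arm their highest and lowest hours lay 0.23 to 0.95 apart on the log2 scale. The widest were Dot1l, the H3K79 methyltransferase, at 0.95, and Kdm1b, an H3K4 demethylase, at 0.93, both in empty-virus cells.

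Other probe sets of the members called at 12 h gave the same direction. Of the 22 called members, 13 had another probe set that passed, 20 in all, and 20 of 20 had the sign of the main one, 15 of them called when every probe set was fitted. The 20 include the rank 3 probe set of Setd5, whose arms moved in opposite directions from 0 to 12 h. It went from 58.2 to 38.1 in empty-virus cells and from 54.2 to 78.8 in SETD5 cells.

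Partners of these enzymes, from lists of complex members, moved in both directions at 12 h. By list, 33.3% to 66.7% were called, beside 47.8% of all tested genes (19.9% higher and 27.9% lower). Among 8 tested PRC2 partners, 2 were higher and 2 lower: Eed, which reads H3K27 methylation, was at 0.58 (adjusted p = 0.00208), and the accessory subunits Jarid2 and Phf1 were at -1.09 (adjusted p = 0.00353) and -0.92 (adjusted p = 0.000452). Phf1 reached 50 only at 0 h (53.8 and 51.7) and 192 h (69 and 65.5), so it passed the intensity limit through hours at which it was high. Of 12 COMPASS and MLL partners, 3 were higher, with the core subunit Wdr5 at 0.57 (adjusted p = 0.00241), and 1 was lower, Ncoa6 at -0.47. Of 6 H3K9 methylation partners, 3 were higher, with the corepressor Trim28 at 0.70 (adjusted p = 0.000975) and Uhrf1 at 0.93 (adjusted p = 0.0291), and 1 was lower, Atf7ip at -0.78. Of 6 CoREST partners, 2 were lower, Phf21a at -0.98 and Rcor3 at -0.83. Kmt5b, an H4K20 methyltransferase among 11 further lysine methyltransferases of which 4 were lower and 1 higher, had the largest difference of these lists, -1.73 (adjusted p = 5.13e-05). Of 6 further JmjC genes, 1 was higher and 1 lower at 12 h. At 48 h the numbers higher and lower were 0 and 1 of the PRC2 partners, 1 and 3 of the COMPASS and MLL partners, 1 and 1 of the H3K9 methylation partners, 0 and 2 of the CoREST partners, 0 and 2 of the further methyltransferases and 3 and 0 of 6 further JmjC genes, beside 34.2% of all tested genes called.

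The question of the virus comparison is whether SETD5 changes the expression of the other enzymes of its class. Over all 7 hours, 1 of the 40 tested members was called, and it was lower (2.5%, beside 3.62% of all tested genes, 2.73% higher and 0.887% lower). The median member differed by 0.06 and the median tested gene by 0.03. Setd5 averaged 309 in empty-virus cells and 302 in SETD5 cells, a log2 difference of -0.03 ± 0.06 (adjusted p = 0.788). Its other probe sets that passed averaged 112 and 43.1 in empty-virus cells and 114 and 47.5 in SETD5 cells, with differences of 0.01 ± 0.11 (adjusted p = 0.954) and 0.06 ± 0.16 (adjusted p = 0.862) when every probe set was fitted. None of the 3 gave a called rise in the arm labelled SETD5. The positions of its probes relative to the transduced sequence were not given in the sources used here. The values therefore do not check the virus, and the arm is named by its label. The paper reports expression of the transduced SETD5 from qPCR and immunoblots, which were not examined here.

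The member called over all hours was Kdm5a, an H3K4 demethylase first found as a partner of the retinoblastoma protein. Empty-virus cells gave 669, 463, 615, 778, 634, 729 and 596. SETD5 cells gave 518, 361, 292, 574, 503.5, 532 and 509.8. The SETD5 array was the lower at 7 of 7 hours, with log2 differences of -0.22 to -1.04 and the widest gap at 24 h. The mean difference was -0.45 ± 0.09 (1.37-fold, n = 7 hours, adjusted p = 0.0329 by limma). Without the 24 h pair it was -0.35 (adjusted p = 0.0436).

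Other Kdm5a probe sets did not all share this. The probe set of rank 2 by mean intensity gave 532, 322, 499, 599, 559, 509 and 414.5 in empty-virus cells and 477, 393, 461.5, 511.5, 552, 535 and 505 in SETD5 cells, a difference of 0.017 ± 0.08 (adjusted p = 0.916) with arms that cross. The probe set of rank 3 gave -0.50 ± 0.16 (adjusted p = 0.0992). The Kdm5a call was lost in 7 of 15 alternatives, 5 of which left out the pair of 0, 12, 36, 48 or 96 h (adjusted p = 0.0549 to 0.0942). With no filter the adjusted p was 0.07, and without the hour block it was 0.9997. In these 7 alternatives the difference itself stayed between -0.47 and -0.45.

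**Figure D4:**
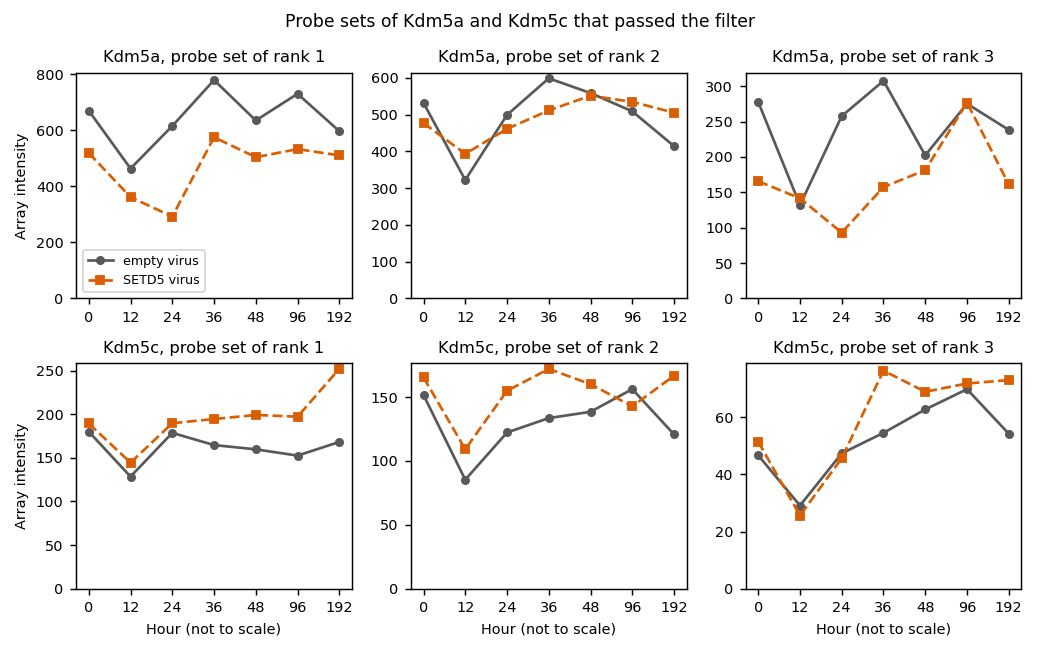
Array intensity (vertical axis, linear, from 0) is plotted against hour (horizontal axis, spaced evenly and not to scale) for the probe sets of Kdm5a and Kdm5c that passed the filter, ranked by mean intensity, with 1 array per point. The SETD5 arm lies below the empty virus arm at every hour in the rank 1 probe set of Kdm5a but crosses it in rank 2, and the rank 1 probe set of Kdm5c is higher with the SETD5 virus at every hour.

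In the late hours (36 to 192 h), 1 member was called higher and none lower (2.5%, beside 12% of all tested genes, 7.43% higher and 4.56% lower). This was Kdm5c, the X-linked H3K4 demethylase, at 165, 160, 153 and 168 in empty-virus cells against 195, 199, 197 and 252 in SETD5 cells at 36, 48, 96 and 192 h. Each late SETD5 array of Kdm5c was above each late empty virus array. At 0, 12 and 24 h the arms lay closer, at 180.2, 129 and 179 against 189.6, 145 and 189.9. The difference was 0.35 ± 0.08 (1.27-fold, n = 4 hours, adjusted p = 0.0261), and its other probe sets gave 0.21 (adjusted p = 0.197) and 0.22 (adjusted p = 0.135). Over the same hours 6 of 7 adipocyte markers were lower (median -1.45) and 2 of 8 preadipocyte markers higher, and the part of the lesser differentiation in the Kdm5c value was not tested. The call was lost without the pair of 0, 24, 48, 96 or 192 h, with an adjusted p of 0.0506 to 0.0859, and without the hour block (adjusted p = 0.555) or with no filter (adjusted p = 0.059), while the difference itself lay between 0.28 and 0.37.

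In the early hours (0 to 24 h) limma called no member, beside 0.023% of all tested genes, and 3 had an unadjusted p under 0.05. These were Kdm5a at -0.58 ± 0.14 (adjusted p = 0.321), Kmt2a, the MLL1 enzyme, at -0.34 ± 0.10 (adjusted p = 0.437) and Suv39h2 at 0.51 ± 0.17 (adjusted p = 0.584). For the late minus early difference none was called by limma either, beside 0.023% of all tested genes (0.0115% higher and 0.0115% lower). An unadjusted p under 0.05 was found for 3 members, with the largest difference for Suv39h2 at -0.77 ± 0.23 (adjusted p = 0.334). For the early and the late minus early comparison, the share of all tested genes at that unadjusted limit was not counted. The other Suv39h2 probe set that passed was lower in SETD5 cells at every hour, early and late.

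Over all hours 9 of 40 members, Kdm5a among them, had an unadjusted p under 0.05 by limma, and in the late hours 8 of 40. The shares of all tested genes at that unadjusted limit were not counted, here or for the partner lists. For all hours and the late hours they are at least the 3.62% and 12% that were called. The members not called over all hours lay between -0.18 and 0.27. Prdm2 was at 0.27 ± 0.08 (adjusted p = 0.0826) and Setdb1 at 0.21 ± 0.06 (adjusted p = 0.0901), each higher at 7 of 7 hours. So were Kdm5c (0.24), Kdm2b (0.21), Kmt2e (0.20), Smyd2 (0.19) and Kdm1a (0.12), none of them called over all hours. The share of all tested genes higher, or lower, at 7 of 7 hours was not counted. At single hours 49.4% to 61.5% of all tested genes were higher. In their main probe sets all 6 H3K9 methyltransferases had a positive difference, with a median of 0.13, and none was called. The other probe sets that passed, of Suv39h2 and Prdm2, did not share this direction. They averaged 43.5 and 107.2 in empty-virus cells and 34 and 106.7 in SETD5 cells, and that of Suv39h2 was lower with SETD5 at every hour. Ezh2 was lower at 6 of 7 hours, with a mean difference of -0.16, and was not called.

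The numbers of members higher with the SETD5 virus were 23, 21, 25, 24, 23, 19 and 29 of 40 in the order of the hours. Smyd3, counted here, reached 50 on 3 arrays, all of SETD5 cells (66.4, 52.2 and 58.2 at 0, 36 and 192 h). It thus passed the intensity limit only through the arm and hours at which it was high. The shares of all tested genes that were higher were 58.4, 53.6, 60.0, 55.6, 49.4, 55.7 and 61.5%. Differences over 2-fold were found for 2 members at 24 h, Kdm5a at -1.04 and Suv39h2 at 1.01. At the other hours 0 members passed 2-fold. The share of all tested genes over 2-fold was 0.369% at 24 h and 7.14% at 192 h. The rank 2 probe set of Suv39h2 went the other way at 24 h, at 112 in empty-virus cells and 78.1 in SETD5 cells. That of Kdm5a gave 499 and 461.5, and its rank 3 probe set 258 and 93. No replicate was available at any hour.

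**Figure D5:**
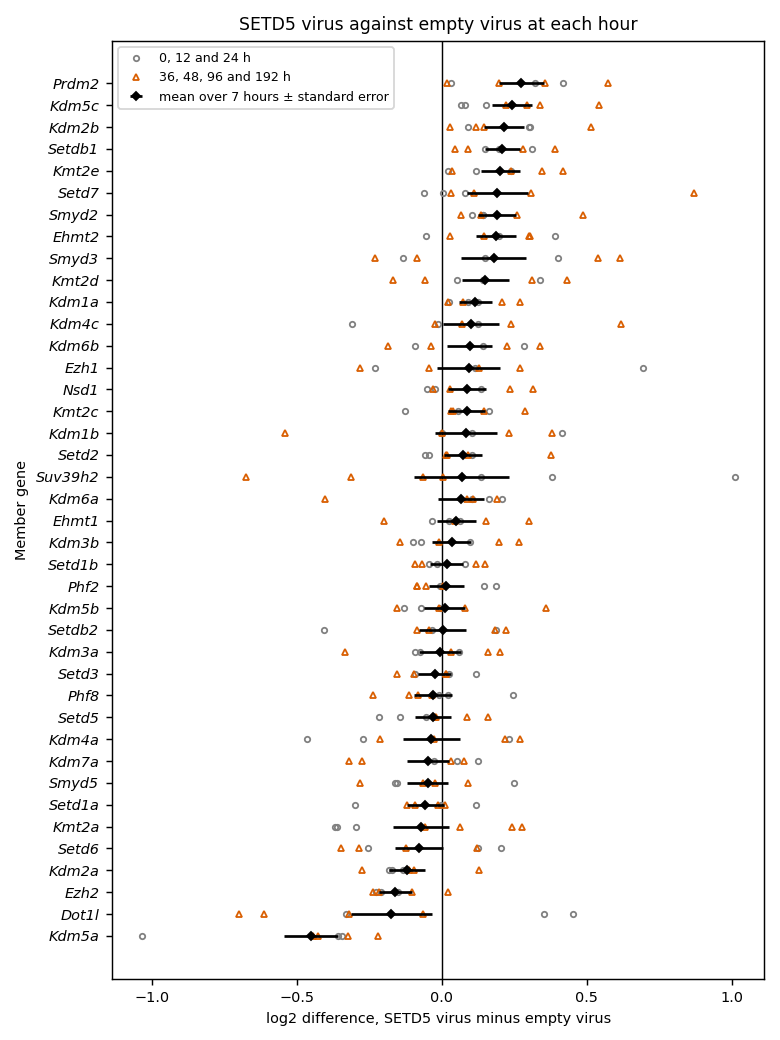
Each open symbol is the log2 difference in intensity plus 16, SETD5 virus minus empty virus, at 1 hour (circles for 0, 12 and 24 h, triangles for 36, 48, 96 and 192 h) for the 40 tested members, and diamonds with bars give the mean over 7 hours ± 1 limma standard error. Kdm5a is the lowest, at -0.45, with all 7 symbols below 0, and the triangles of Setd7 reach 0.87 on the right and those of Dot1l -0.70 on the left.

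The change from the mixture hours (12 to 48 h) to the insulin hours (96 and 192 h) was also compared between arms. In empty-virus cells 1 member was called, Kdm2b at -0.83 ± 0.19 (adjusted p = 0.0227), beside 10.3% of all tested genes (6.5% higher and 3.84% lower). In SETD5 cells Kdm2b was at -0.64 ± 0.19 (adjusted p = 0.0627) and Suv39h2 alone was called, at -1.62 ± 0.40 (adjusted p = 0.0346), beside 7.52% of all tested genes (5.17% higher and 2.35% lower). Suv39h2 reached 50 on 4 arrays, all at 12 or 24 h and thus within the mixture hours, and this call held in 6 of 13 alternatives, with adjusted p of 0.026 to 0.267. For the difference between arms limma called no member, beside 5.94% of all tested genes (2% higher and 3.94% lower), with 6 at an unadjusted p under 0.05. The largest of these were Dot1l at -0.76 ± 0.22 (adjusted p = 0.0659) and the lysine methyltransferase Setd7 at 0.57 ± 0.17 (adjusted p = 0.0804). The share of all tested genes at that unadjusted limit was not counted. Dot1l was 69.9 and 94.9 at 96 and 192 h in empty-virus cells and 40.1 and 52.2 in SETD5 cells. Setd7 was 498 and 335.5 in the former and 620.5 and 626 in the latter.

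Partners of the members were compared between the viruses in the same fits. Over all hours limma called 0 of 8 PRC2, 0 of 12 COMPASS and MLL, 0 of 6 H3K9 methylation, 0 of 6 CoREST, 0 of 11 further methyltransferase and 0 of 6 further JmjC genes, with 0, 0, 1, 1, 3 and 0 at an unadjusted p under 0.05, beside 3.62% of all tested genes called. In the late hours 2 were called, beside 12% of all tested genes: the H4K20 methyltransferase Kmt5a was lower (-0.58, adjusted p = 0.0179) and Mecom higher (0.30, adjusted p = 0.044) among the further methyltransferases. The CoREST subunits Phf21a, Rcor1 and Rcor3 had late values of 0.39 (adjusted p = 0.0631), 0.26 (adjusted p = 0.112) and 0.24 (adjusted p = 0.103).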

How the data were processed

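Total RNA of 3T3-L1 cells was extracted with ISOGEN, labelled as biotinylated cRNA and hybridised to Affymetrix mouse arrays. The deposited table holds a linear intensity for each probe set on each array, which the authors made with the GeneChip Analysis Suite; on all 14 arrays the mean after trimming 2% at each end was 100, so each had been scaled to a common level. The scaling target and any filter were not given in the sources used here.

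Of 45100 probe sets, 64 were controls, 34944 had 1 symbol, 932 several and 9160 none. Each gene was read from its 1-symbol probe set with the highest mean. Genes that reached 50 on at least 3 arrays were tested on log2(intensity + 16), a scale that understates changes of low genes. The number of arrays limits the precision. On each array 88.4% to 93.8% of tested genes reached 50.

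Models were fitted with limma 3.58.1 (lmFit, eBayes, two-sided, Benjamini-Hochberg over all tested genes) in R 4.3.3. Virus differences had hour as a block, which pairs the arrays through the hour in the labels (6 residual degrees of freedom, 5 for the early and late windows). Hours were set against 0 h with a block for virus (6 residual degrees of freedom). The mixture and insulin windows were compared within each arm (8 residual degrees of freedom) and between arms (4).

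Tried as alternatives were offsets of 4 and 64, no filter or a limit of 100, quantile or median scaling of the arrays, every probe set on its own, a trended robust prior, no replicate block, other windows and leaving out each hour. The members and gene lists were chosen with earlier results of these data known. Named were Setd5, every member called between viruses and the 4 largest rises and falls per hour. Further members were named to account for their role group. For each partner list, up to 4 genes in order of their late or 48 h difference were planned. Of these, only late values from the further methyltransferase and CoREST lists are printed, and 48 h is given as counts. The partner values at 12 h and the split into demethylases and other enzymes were chosen after the values were seen. Promoter sequences are RefSeq, GRCm38.p6.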

Additional observations from a re-analysis of the deposited data

Results flagged for a closer look

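Among the virus differences of the 40 tested members at the 7 hours, 4 members had 1 hour that stood apart from the other 6; chance alone flags about 1 in 20, or 5%. Kdm5a was at -1.04 at 24 h against -0.44 to -0.22 at the other hours. In empty-virus and SETD5 cells at 24 h, its rank 2 probe set gave 499 and 461.5 and its rank 3 probe set 258 and 93. Kdm6a was at -0.40 at 36 h against 0.09 to 0.21. The rank 2 probe set of Kdm6a went the other way at 36 h, at 229 in empty-virus and 267 in SETD5 cells, and rank 3 gave 53.8 and 44.9. Setd7 was at 0.87 at 192 h against -0.06 to 0.31, and Setd2, an H3K36 methyltransferase, was at 0.38 at 192 h against -0.06 to 0.11. Each rests on a single pair of arrays.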

How the results depend on the processing

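Of 64 calls of single members, 42 held in every alternative of the same probe set and 22 were lost in at least 1; where a value below changed, the cause was not tested unless stated. Members called at any hour numbered 29, and 26 to 29 under the alternatives. At 12 h the lower members numbered 17, and 14 to 18 under the alternatives, with 14 when arrays were scaled to a common median, which moved the median of all tested genes from -0.06 to 0.05; the higher members numbered 4 or 5. Without the hour pairing (no replicate block), the virus comparison gave 0 members over all hours and 0 late, and with no filter also 0 and 0. Leaving out 1 hour pair gave 0 to 1 over all hours, 0 to 0 early, 0 to 2 late, 0 to 0 for late minus early, 0 to 1 for the insulin minus mixture change in each arm and 0 to 1 for its difference between viruses (Dot1l at -0.90 without 48 h, Setd7 at 0.85 without 96 h). Late calls were 3 with late hours of 48 to 192 h (Smyd2 0.29, Dot1l -0.55, Kdm5c 0.39), 6 with 96 and 192 h alone (also Setd7 0.59, Kdm4c 0.43 and Kdm7a -0.30; Setd7 was then the 1 call for late minus early, 0.56) and 2 with every probe set (Kdm1a 0.33). The insulin minus mixture change with the SETD5 virus gave 2 calls after quantile normalization (Setdb1 added), 3 after median scaling (Setdb1 and Kdm2b added), and 0 with an offset of 64, no filter or a limit of 100. Among the 64 calls, another probe set gave values of the opposite sign, none called, for Kdm5a over all hours (0.017), Kdm2a at 48 h (0.10) and Setd3 at 192 h (-0.12). Leaving out 0 h gives no difference from 0 h, and an hour left out gives none of its own. Members dimmer than 50 on most arrays, such as Suv39h2, depend on the offset, and no single hour has a replicate.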
